A study of Ctenopharyngodon idella and Danio rerio with 13 samples.

Results

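The sperm of wild-type grass carp (Ctenopharyngodon idella) was described from 5 libraries, each made from the sperm of a different fish, out of 13 libraries in the series. They were chosen by their titles, which call them grass carp sperm and number them, and fish 1 to fish 5 below carry those numbers. All 5 fish had the wild-type genotype and received no treatment named in the labels, and their age was not given there. Sperm was diluted in buffer and polyadenylated RNA was copied into full-length cDNA in a single reaction, with a kit made for single cells, before an Illumina library was prepared, as the labels' protocols describe.

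A spermatozoon carries a condensed nucleus, a midpiece with mitochondria and a flagellum built on an axoneme, in which dynein motors slide microtubules against each other. It is transcriptionally quiet and has lost most of its cytoplasm, so its RNA is scarce and is largely a remainder from the time when the cell was a spermatid. Milt can also hold earlier germ cells, somatic cells of the testis and blood cells. In bulk samples, fewer cells of a type and less RNA per cell cannot be told apart. The roles given below for named genes are known mainly from human, mouse or zebrafish work.

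Counts on the 31314 genes with a name ranged from 1335167 in fish 4 to 5471312 in fish 5, and 29614 to 30154 of these genes had at least 1 count in a fish. Levels are given as CPM, counts scaled to a library total of 1000000 on named genes. The general level of a library, the median CPM of its protein-coding genes, lay between 27.7 and 29.3 CPM in the 5 fish. A gene stood above it where its CPM was at least 10 times that median, which is 277 to 293 CPM, with at least 20 counts. The limit that a count of 0 allows, taken as 3 counts, was 0.548 CPM in fish 5 and 2.25 CPM in fish 4, the shallowest library. Across genes, which are not independent replicates, each pair of fish had a Pearson correlation of log2(CPM + 1) between 0.957 and 0.979 over 10 pairs.

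Few genes stood above the general level, and 1 of them was far ahead of the rest. Of the 31314 genes, 9 stood above it in all 5 fish, which is 0.0287% of the genes. They were plxnb1a, gbf1, grb10b, ttn.2, ttn.1, arnt, syne1a and the protein-coding genes LOC127503431 and LOC127508823. A further 8 genes stood above in exactly 2 fish, 8 in 3 fish, 6 in 4 fish and 38 in exactly 1 fish, and 31245 in none. The genes above held 3.75% of the counts in fish 1, 0.954% in fish 2, 1.18% in fish 3, 2.11% in fish 4 and 3.74% in fish 5. The 9 genes met in all fish held 2.72% of the counts in fish 1, and between 0.544% and 1.09% in the other 4. Without plxnb1a, the remaining 8 held 0.607% in fish 1 and between 0.327% and 0.593% in the others.

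The gene plxnb1a, which encodes a B-type plexin, a cell surface receptor for semaphorins, had 21147 CPM in fish 1, 2164 in fish 2, 3363 in fish 3, 4964 in fish 4 and 2023 in fish 5. Fish 1 had 4.26 times the level of the next fish, and even the lowest fish was at 72.8 times its general level. The gene gbf1, an exchange factor that activates ARF proteins in Golgi transport, had 2856, 428, 831, 2284 and 1604 CPM in fish 1 to 5. It was high in fish 1 and fish 4 and low in fish 2. The gene grb10b, an adaptor that binds insulin and insulin-like growth factor receptors, had 408, 316, 362, 949 and 1346 CPM in fish 1 to 5. Its order differed from that of plxnb1a, with fish 5 highest and fish 4 next. The coefficient of variation over the 5 fish (CV, the SD over the mean) was 121% for plxnb1a, 62.6% for gbf1 and 67.1% for grb10b.

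The others of the 9 varied less, with CVs from 5.60% for arnt to 25.8% for LOC127508823. Over all genes with a mean of at least 100 CPM, the median CV was 10.4% and the 90th percentile 25.7%. Most of these genes were thus no more even than genes of their level. The titin genes, which encode the giant elastic protein of the muscle sarcomere, lie next to each other. Titin gene ttn.2 had 602, 535, 693, 565 and 553 CPM in fish 1 to 5, and ttn.1 had 516, 398, 572, 497 and 415 CPM. Both were highest in fish 3 and lowest in fish 2, with a CV of 10.7% for ttn.2 and 15.1% for ttn.1. The gene arnt, the partner with which the aryl hydrocarbon receptor and hypoxia-inducible factors bind DNA, had 378, 402, 425, 368 and 391 CPM in fish 1 to 5, a CV of 5.60%. The gene syne1a, a nesprin that ties the nuclear envelope to the cytoskeleton, had 371, 290, 370, 324 and 307 CPM, a CV of 11.03%. LOC127503431 had 417, 599, 432, 487 and 525 CPM and LOC127508823 had 525, 306, 345, 458 and 301 CPM in fish 1 to 5. The last gene just inside the threshold was syne1a, whose lowest fish stood at 10.5 times the general level. Just outside lay myo3a, a motor of hair cell stereocilia, at 9.79 times, and the nesprin syne2b at 9.59 times in their lowest fish.

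**Figure D1:**
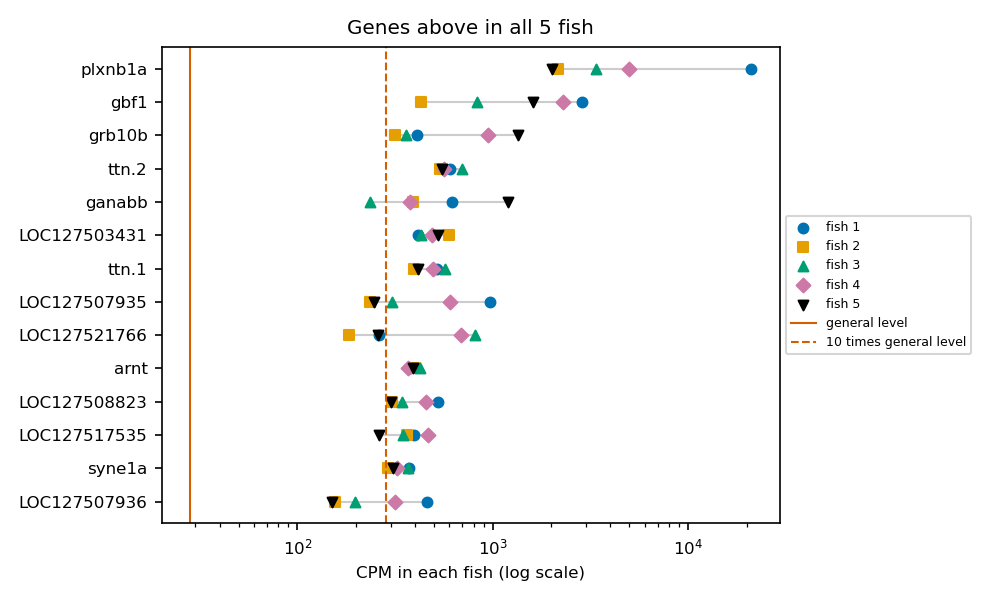
CPM (horizontal log axis) in each of the 5 fish for the 14 genes that stood above the general level, or above genes of like span, in all 5 fish, ordered by mean. The points of arnt and ttn.2 lie close together, while plxnb1a runs from 2023 CPM in fish 5 to 21147 CPM in fish 1.

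The level of a gene followed its span, the distance from its start to its end with introns included. Among protein-coding genes, median CPM was 12.7 ± 0.859 at spans of 1000 to 5000 bases, 35.2 ± 0.852 at 10000 to 20000 bases and 66.2 ± 2.46 above 100000 bases (SD, n = 5). Per kb of span the order was the reverse, with a median of 4.42 CPM per kb in the shortest of these classes and 0.402 in the longest. Across protein-coding genes, the Spearman correlation of CPM with span was 0.634 to 0.680 in the 5 fish, as a description over genes that share libraries. Of the 9 genes, 6 spanned over 100000 bases and 2 between 50000 and 100000 bases, and only LOC127508823, with 4504 bases, was short. Counts per gene do not show whether reads came from exons or introns, or from RNA or DNA, so these sources cannot be told apart.

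**Figure D2:**
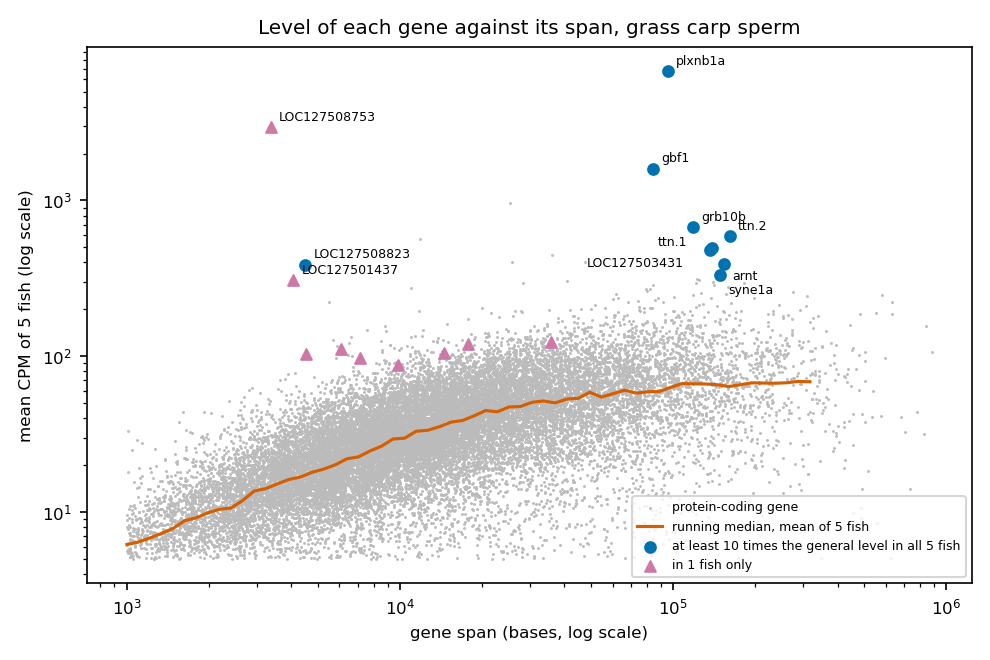
Mean CPM of the 5 fish (vertical log axis) against gene span in bases (horizontal log axis) for protein-coding genes with a mean of at least 5 CPM, with the running median as a line. Of the 9 genes above in all 5 fish (circles), 6 lie at spans over 100000 bases, and plxnb1a and gbf1 lie far above the line, as does the lncRNA LOC127508753, which was high in 1 fish only (triangles).

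Levels were therefore also set against genes of like span, the running median of the 401 protein-coding genes nearest in span in the same library. In fish 1 to 5, 79.0%, 72.7%, 81.2%, 76.4% and 75.9% of protein-coding genes lay within 2 times this level. Of 28529 genes with a span of at least 1000 bases, 12 stood at least 5 times above it in all 5 fish, which is 0.0421%. Of these, 7 were among the 9 genes above. The highest ratios, as geometric means over the 5 fish, were 70.4 for plxnb1a, 31.2 for the lncRNA LOC127507936, 21.8 for LOC127508823 and 21.7 for gbf1. The ratio was 9.09 for ttn.2, 7.44 for LOC127503431, 7.21 for ttn.1 and 6.21 for arnt. The other 2 of the 9 lay close to this threshold. The lowest fish of grb10b was at 4.94, with a mean ratio of 8.49, and that of syne1a at 4.63, with a mean ratio of 5.08. The threshold was reached by grb10b in 4 fish and by syne1a in 2. Just inside lay arnt, whose lowest fish had a ratio of 5.59.

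The 5 genes that this scale added were ganabb and 4 lncRNAs. The gene ganabb encodes the catalytic subunit of glucosidase II, which trims sugar chains of new proteins in the endoplasmic reticulum. It had 621, 393, 235, 378 and 1201 CPM in fish 1 to 5, and a ratio of 14.7 to genes of like span. The lncRNA LOC127507935 had 967, 236, 305, 601 and 248 CPM and LOC127507936 had 462, 156, 198, 315 and 150 CPM. Both were highest in fish 1 and next highest in fish 4. LOC127521766 had 261, 183, 812, 690 and 258 CPM, high in fish 3 and fish 4, and LOC127517535 had 396, 363, 349, 469 and 261 CPM.

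Genes beside a called gene mostly lay near the level of genes of like span. The 36 genes called on either scale, in all fish or in 1 fish only, had 72 nearest neighbours in the gene order, and only ttn.1 and ttn.2, each the other's neighbour, were called. The other 70 neighbours had a median ratio of 0.874 to genes of like span. As a mean over the fish, 2 had a ratio over 3, LOC127497914 beside arnt with 3.76 and the rRNA gene LOC127507967 beside LOC127507936 with 4.82. In single fish, 7 of the 70 had a ratio over 3 in at least 1 fish, among them LOC127507968 beside LOC127507935 with 5.08 in fish 1. The 22 genes above genes of like span in 1 fish only, described below, had 44 neighbours, and 1 of these had a ratio over 3 in the fish where its gene was high. It was dis3, a subunit of the RNA exosome beside bora, with a ratio of 6.39 and 238 CPM in fish 5 and ratios of 0.984 to 2.03 in the other 4.

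Genes with at least 3 times the level of genes of like span in all 5 fish numbered 118, which is 0.414% of 28529. Of these, 94 were protein-coding and 23 lncRNA genes. Their median CV was 13.8%, and 93 had a CV under 30%. The demand on all 5 fish favours a low spread. Over all genes with a mean of at least 20 CPM the median CV was 13.7%, and at 100 CPM or more it was 10.4%. The 118 were thus no more even than other genes. Among the 118 were genes of several very large proteins. Besides the titins there were the muscle filament ruler neb at 249 ± 30.2 CPM, dystrophin gene dmd at 255 ± 27.4, the cytoskeletal linkers macf1a at 294 ± 42.8 and dst at 237 ± 18.3, and the basement membrane proteoglycan hspg2 at 248 ± 6.37 (SD, n = 5 each). From the axoneme came hydin, a protein of the central pair, at 227 ± 25.8 CPM. The dynein heavy chains dnah5 at 237 ± 21.0, dnah6 at 205 ± 7.56 and dnah1 at 175 ± 12.2 CPM were also there (SD, n = 5). Of the list of axoneme and flagellum genes described below, 4 of 70 matched members were in this set, and its median ratio was 1.21. The list of epithelium, muscle and kidney had 3 of 33 in the set, and that of long genes 13 of 68. Several large proteins of other tissues were there too, such as cubn, the kidney and gut endocytic receptor cubilin, at 198 ± 14.3 CPM, and otogl, an inner ear matrix protein, at 205 ± 20.7 CPM (SD, n = 5). These examples were chosen after their values were seen. Lengths of mature transcripts were not given in the sources used here.

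On CPM per kb of span, the general level was the median over protein-coding genes, 2.41 to 2.68 CPM per kb in the 5 fish. At least 10 times above it in all 5 fish stood 27 genes, which is 0.0862% of the 31314. Division by a short span raises short genes on this scale. In plain CPM no tRNA, rRNA, snRNA or snoRNA gene stood above the general level in any fish. The rRNA gene LOC127510339, among the 27, had only 15.9 to 27.9 CPM. They were mostly short RNA genes: 10 of 1625 tRNA, 8 of 94 rRNA, 4 of 192 snRNA and 2 of 222 snoRNA genes. Of the tRNA genes, 666 had no count in any fish. The rest of the 27 were the lncRNAs LOC127507935 and LOC127507936 and the protein-coding LOC127508823. The highest was the rRNA gene LOC127510334, with a span of 119 bases, at 2017, 1212, 1564, 1284 and 1057 CPM per kb in fish 1 to 5. The snoRNA gene LOC127503019 followed at 1056, 738, 829, 1151 and 635 CPM per kb. Of the 24 short genes with a span under 300 bases, 14 were lowest in fish 5 and 8 in fish 2, while 11 were highest in fish 1 and 8 in fish 4. The demand of at least 20 counts in every fish is strictest in fish 4, the shallowest library. It favours genes that are high there, so these counts by fish follow in part from the choice of genes. Of 88 rRNA genes of 119 bases, 8 were called and 15 had no count in any fish. How reads were shared among near-identical copies was not given, so levels of single copies are uncertain. The count of 27 depended on fish 4, the shallowest library, and was 63 without it. All rRNA genes together held 0.118% of the counts in fish 1 and 0.0553% to 0.0861% in the other 4.

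The 31 genes above the general level in at least 2 fish were split at a CV of 30%, called even below it and uneven from it on. Over all genes with a mean of at least 100 CPM, the 90th percentile of the CV was 25.7%. Because CPM follows span, long genes lie nearer the threshold in every fish. A shorter gene can enter through the fish where it is high. The contrast in span and the counts by fish given here therefore follow in part from how the genes were chosen. A CV under 30% was found for 16, with CVs from 5.60% to 25.8%, a median span of 137529 bases and 12 spans over 100 kb. A CV of 30% or more was found for 15, from 32.2% to 138%, with a median span of 25737 bases and 2 spans over 100 kb. Relative to genes of like span, the even genes had a median ratio of 4.75 and the uneven ones 10.1. The even ones included the nesprins syne1b at 295 ± 26.1 and syne2b at 312 ± 34.3 CPM, myo3a at 307 ± 27.6 CPM, ryr2b, a calcium release channel of heart muscle, at 298 ± 29.5 CPM, and lrp1ba, a large endocytic receptor, at 259 ± 28.3 CPM (SD, n = 5). Of the 15 uneven genes, 8 were lowest in fish 2, 4 in fish 3, 2 in fish 5 and 1 in fish 1, and none was lowest in fish 4. They were highest in fish 5 for 7 genes and in fish 1 for 5.

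The most uneven of them was LOC127508705, a protein-coding gene with 22.5, 463, 20.9, 1114 and 3213 CPM in fish 1 to 5. It stood above the threshold in fish 2, 4 and 5 and below the general level in fish 1 and 3, so the fish fell into separate ranges. Genes with named products were also in this set. The RNA-binding protein gene caprin2 had 393, 108, 133, 289 and 456 CPM, and the centrosome scaffold gene pcnt had 559, 188, 353, 481 and 420 CPM in fish 1 to 5. Both were lowest in fish 2. The phosphatase gene ptpn1, whose product turns off insulin receptor signals, had 562, 270, 160, 410 and 607 CPM, and the forkhead factor gene foxo6b had 633, 207, 325, 372 and 689 CPM. Fish 1 and fish 5 were the highest for both. The actin nucleator gene cobl had 245, 120, 119, 415 and 526 CPM, and oplah, an enzyme of glutathione turnover, had 244, 194, 226, 461 and 403 CPM, both high in fish 4 and fish 5.

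Genes above the general level in 1 fish only, with at least 5 times the level of the next fish, numbered 9, which is 0.0287% of the 31314. Of these, 4 were high in fish 5, 3 in fish 1, 1 in fish 3 and 1 in fish 4, and none in fish 2. The lncRNA LOC127508753 had 14792 CPM in fish 5, with a 95% exact Poisson interval of 14690 to 14894, and 3.13, 3.40, 4.72 and 2.25 CPM in fish 1 to 4. Those values rest on 80930 counts in fish 5 and on 16, 13, 25 and 3 counts in the others. Its mean of 2961 CPM rests on fish 5 alone, and the other 4 fish lay below the general level.

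The lncRNA LOC127501437 had 1397 CPM in fish 5 (interval 1366 to 1429), and 30.9 to 36.3 CPM in the other 4, close to the general level. The protein-coding LOC127497141 had 453 CPM in fish 1 and 32.2 to 43.1 CPM elsewhere. The splicing regulator gene rbfox2 had 429 CPM in fish 1 (interval 411 to 447), against a next highest of 56.9 CPM in fish 4 (interval 44.8 to 71.2). The prenylcysteine oxidase gene pcyox1 had 314 CPM in fish 5 and at most 35.3 CPM elsewhere. Carriers of the inner mitochondrial membrane appeared as well: slc25a39, which brings glutathione into the matrix, had 328 CPM in fish 5 and at most 57.2 CPM elsewhere, and slc25a55a had 331 CPM in fish 3 and at most 46.4 CPM elsewhere. The gene si:ch211-212d10.1 had 424 CPM in fish 4 and at most 45.5 CPM elsewhere. Last, zgc:56095 had 404 CPM in fish 1, 72.3 in fish 3 and 11.7 to 17.8 CPM in the other 3. Such intervals hold counting error alone, since reads amplified without molecular identifiers can come from the same molecule.

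**Figure D3:**
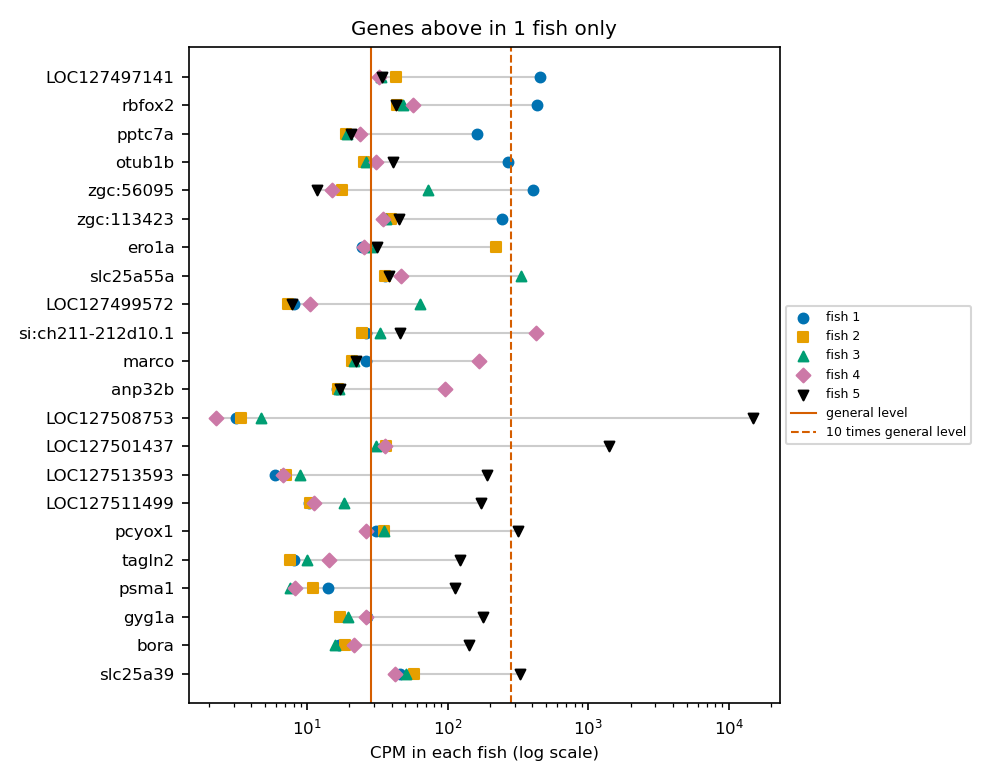
CPM (horizontal log axis) in each of the 5 fish for 22 genes, grouped by the fish in which they were high. These genes were above genes of like span in 1 fish only, with at least 5 times the ratio of the next fish. In each line 1 point stands apart to the right, 10 of them for fish 5 and 6 for fish 1, and the other 4 fish lie lower.

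Against genes of like span, 166 genes stood at least 5 times above in exactly 1 fish. Of these, 22 also had at least 5 times the ratio of the next fish. They are 0.0771% of 28529, and all 9 above were among them. Of the 22, 10 were high in fish 5, 6 in fish 1, 3 in fish 4, 2 in fish 3 and 1 in fish 2. Their count was 13 without fish 5. Without the demand on the next fish the order differed: of the 166, fish 1 to 5 had 24, 84, 6, 19 and 33, the most in fish 2. In fish 5 the added genes included tagln2, an actin-binding protein, with 121 CPM and at most 14.2 CPM elsewhere. The proteasome subunit gene psma1 had 112 CPM in fish 5 and at most 14.1 CPM elsewhere. The glycogen primer gene gyg1a had 178 CPM and the mitotic kinase activator gene bora 142 CPM in fish 5, against at most 26.6 and 21.7 CPM in the other fish. Among the 22, the only gene high in fish 2 was ero1a, an oxidase that makes disulfide bonds in the endoplasmic reticulum. It had 220 CPM there and at most 31.4 CPM elsewhere. In fish 1, the deubiquitinase gene otub1b had 269 CPM and the mitochondrial phosphatase gene pptc7a 161 CPM, against at most 40.6 and 23.97 CPM elsewhere. In fish 4, the macrophage scavenger receptor gene marco had 167 CPM and anp32b, a nuclear histone-binding protein, 95.9 CPM, against at most 26.4 and 17.2 CPM elsewhere. The 22 genes held 1.81% of the counts in fish 5, where LOC127508753 alone held 1.48%, and 0.0717% to 0.229% in the other fish.

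The spread between fish was small for most genes. Over 17787 genes with a mean of at least 20 CPM, the median CV was 13.7%, and its 10th and 90th percentiles were 7.12% and 24.1%, where counting error alone would give a median of 8.88%. At 100 CPM or more, 986 genes had a median CV of 10.4% against 5.09% from counting, and 48 had a CV over 50%. The biological coefficient of variation of edgeR, which takes counting error out, had a common value of 16.2% over 26903 genes. Those genes had a mean of at least 5 CPM. As a model estimate, it is not the CV above less its counting part. Its median over genes was 13.8% at 20 CPM or more and 15.0% at 100 CPM or more. The lowest CVs at that level were those of dlg2, a scaffold of synapses, with 107, 106, 111, 108 and 109 CPM in fish 1 to 5, and lrp1bb, a large endocytic receptor, with 236, 243, 248, 241 and 245 CPM. Their CVs were 1.77% and 1.82%, and grid1b, a glutamate receptor family member, and map4k3b, a kinase, had 2.19% each. These are the lowest of 986 values and lie below the 5.09% from counting, so they do not show that these genes vary less than others.

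**Figure D4:**
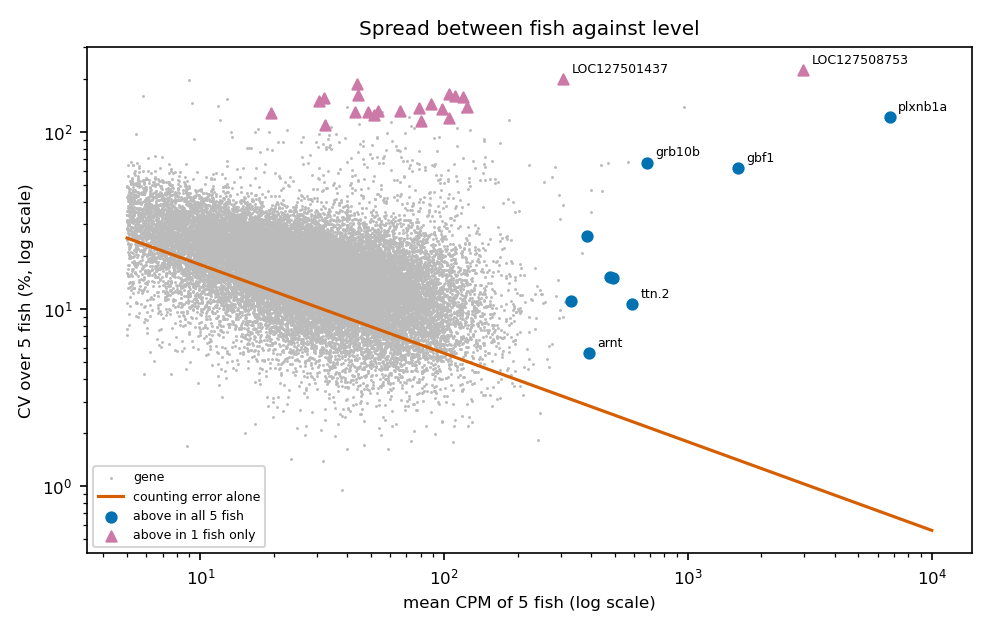
CV over the 5 fish (vertical log axis, %) against mean CPM (horizontal log axis) for genes with a mean of at least 5 CPM, with the CV from counting error alone as a line. Most genes lie near or above the line, and those above in all 5 fish (circles) run from 5.60% for arnt to 121% for plxnb1a. The genes above in 1 fish only (triangles) lie at CVs over 100%, which follows from choosing them at 5 times or more the next fish.

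Among genes with a mean of at least 20 CPM, departures of a single fish were more often upward than downward at a factor of 2. A level more than 2 times that of the next highest fish was found for 147 of the 17787 genes, 53 in fish 5, 38 in fish 1, 35 in fish 4, 12 in fish 3 and 9 in fish 2. A level under 1 in 2 of the next lowest fish was found for 6 genes. The demand on the mean lets in genes that reach it only through 1 high fish. One such gene is tagln2, with 121 CPM in fish 5 and at most 14.2 CPM elsewhere. The number of upward departures is raised by this choice, and by how much was not tested. Fish 2 stood apart in another way, with more moderate departures. It had 880 genes at 3 times or more the level of genes of like span, against 189 to 533 in the other 4. Of the 17787 genes, fish 2 was the highest fish for 5130 and the lowest for 4108. Both were the most of any fish, with 2516 to 3940 lowest in the other 4.

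Relative to genes of like span, the medians of the cell type lists lay near 1, those of sperm among them. Of 83 genes of the sperm axoneme and flagellum, 70 were matched by symbol. Their median was 34.8 ± 1.29 CPM, against 28.3 ± 0.626 CPM for all protein-coding genes (SD, n = 5). None of the 70 stood above the general level in any fish. Of all 25130 protein-coding genes, 9 stood above in all 5 fish and 50 in 1 to 4 fish. At that share, lists of such sizes would hold few or none. Relative to genes of like span the axoneme median was 1.21 ± 0.0875, and within the list single genes ran from a ratio of 0.310 to 3.86. The sperm head and spermatid list had 19 of 44 matched, none of them above, with a median of 31.9 ± 1.00 CPM and a ratio of 1.02 ± 0.0244. The germ cell and meiosis list had 38 of 56 matched, none above, a median of 33.8 ± 2.06 CPM and a ratio of 1.18 ± 0.0439 (SD, n = 5). No sperm or germ cell list member was at 0 in any fish. Few genes of any kind were: 274 of the 25130 protein-coding genes were at 0 in at least 1 fish.

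Lists of other cells gave like ratios. The median ratio to genes of like span was 1.07 ± 0.0950 for the oocyte and egg list (15 of 26 matched), 1.01 ± 0.0703 for somatic cells of the testis (25 of 32) and 1.21 ± 0.0498 for blood cells (23 of 28). It was 1.17 ± 0.0483 for leukocytes (30 of 36) and 1.04 ± 0.0659 for epithelium, muscle and kidney (33 of 39; SD, n = 5). None of their members was at 0 in any fish, beside 274 of all 25130 protein-coding genes at 0 in at least 1 fish. With like ratios and no member at 0, these lists did not set sperm apart from other cells in these libraries. In the list of epithelium, muscle and kidney, ttn.1 and ttn.2 stood above in all 5 fish. There the kidney filter gene nphs1 had 316 CPM in fish 1 and 101 to 133 CPM in the other 4, and epcam, an epithelial adhesion protein, had 46.8 CPM in fish 5 and 8.99 to 17.4 elsewhere. In the leukocyte list, spi1b, the myeloid factor PU.1, had 287 CPM in fish 5 and 74.7 to 135 CPM elsewhere. Fish 5 was not the highest for pax5, a B cell factor, at 78.4, 80.5, 91.9, 88.4 and 79.3 CPM in fish 1 to 5, nor for csf3r, a neutrophil receptor, at 68.0, 87.6, 64.7, 79.4 and 69.1 CPM. The leukocyte median was 28.4 CPM in fish 5, within a range of 27.17 to 30.7 CPM over the 5 fish. The same list held marco, high in fish 4, and the part of blood cells in these levels was not tested.

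Among germ cell genes, the tudor gene tdrd6, which acts in germ granules, had 272, 112, 66.4, 168 and 118 CPM in fish 1 to 5. The gene tdrkh, which acts in piRNA trimming, had 189 CPM in fish 5 and 28.8 to 53.9 CPM elsewhere. Fish 1 was the highest for tdrd6 and fish 5 for tdrkh. The meiotic mismatch repair gene msh5 had 91.9 ± 11.2 CPM and the helicase gene tdrd9 had 89.2 ± 8.47 CPM (SD, n = 5).

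**Figure D5:**
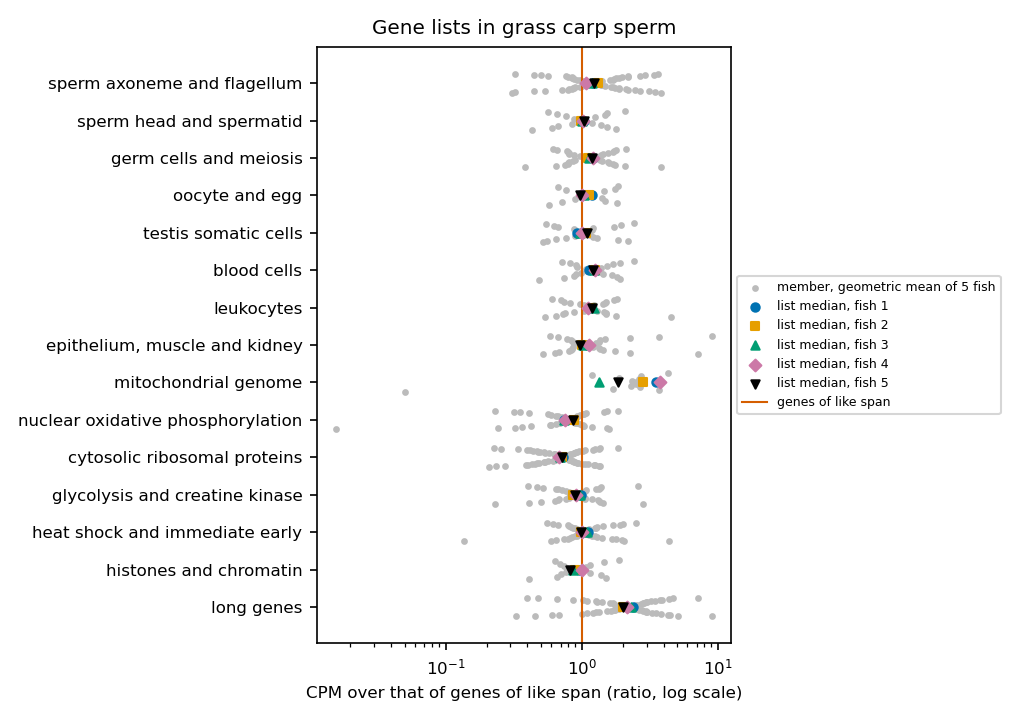
Ratio of CPM to that of genes of like span (horizontal log axis) for the members of 15 lists (grey, geometric mean of 5 fish) and the list median in each fish (coloured). The medians of the cell type lists lie between 0.928 and 1.32, ribosomal proteins lie lower, and mitochondrial and long genes lie higher.

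Mitochondrial genes held few counts in all fish, and their median was above that of genes of like span. The 13 protein genes of the mitochondrial genome, which encode respiratory chain and ATP synthase subunits, held 0.0278%, 0.0184%, 0.0113%, 0.0270% and 0.0131% of the counts in fish 1 to 5. Fish 1 and fish 4 were high and fish 3 and fish 5 low. Their median ratio to genes of like span was 2.67 ± 1.05, with 1.35 in fish 3 as the lowest and 3.80 in fish 4 as the highest. Per kb their median was 6.29 ± 2.76 times the general level per kb (SD, n = 5). The 13 genes had a median span of 785 bases, below the 1000 bases required for calls against genes of like span. In fish 4 they held 360 counts together, so the ratio there rests on few counts. The oxidase subunit gene COX1 had 55.7, 40.0, 20.0, 48.7 and 23.9 CPM in fish 1 to 5, and ATP8, the shortest, was at 0 in fish 2. Nuclear genes of oxidative phosphorylation had a median of 12.3 ± 1.21 CPM and a ratio of 0.796 ± 0.0684 to genes of like span (49 of 72 matched). None of them stood above, beside 9 of all 25130 protein-coding genes in all 5 fish and 50 in 1 to 4 fish.

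Housekeeping lists lay near or below genes of like span. Cytosolic ribosomal proteins had a median of 10.97 ± 0.709 CPM and a ratio of 0.712 ± 0.0189 (79 of 81 matched), and none stood above. Glycolysis and creatine kinase genes had a ratio of 0.928 ± 0.0554 (42 of 44), among them the brain-type creatine kinase gene ckba with 148 CPM in fish 2 and 39.3 to 72.4 CPM elsewhere. Heat shock and immediate early genes had a ratio of 1.04 ± 0.0606 (52 of 59), and ier3, a stress-induced gene of that list, had 104 CPM in fish 5 and 22.6 to 34.5 CPM elsewhere. Histone and chromatin genes had a ratio of 0.906 ± 0.0692 (17 of 40), with the testis bromodomain gene brdt at 61.1 ± 11.8 CPM. The list of long genes had a median of 137 ± 12.6 CPM and a ratio of 2.17 ± 0.166 (68 of 77; SD, n = 5), and 3 of its members stood above the general level in all 5 fish and 6 in 1 to 4 fish, beside 9 and 50 of the 25130 protein-coding genes. Against genes of like span, 2 members stood above in all 5 fish and 3 in 1 to 4 fish, beside 8 and 164 of all protein-coding genes.

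The low side held more genes than the high side at the same fold. In the 5 fish, 7.86% to 8.64% of protein-coding genes lay more than 3 times below genes of like span, and 0.623% to 2.75% lay more than 3 times above. Genes near 0 were few. Of 25130 protein-coding genes, 27 had no count in any fish, 8 of them with a span of at least 5000 bases, such as ssu72, a phosphatase of RNA polymerase II, with 8111 bases, and slc31a2, a copper transporter, with 5263 bases. Of 19269 protein-coding genes with a span of at least 5000 bases, 261 or 1.35% stayed below 0.1 times the level of genes of like span in all 5 fish. By gene type, protein-coding genes held 92.1% ± 0.678 of the counts and lncRNA genes 7.52% ± 0.719 (SD, n = 5). The lncRNA share was 8.74% in fish 5 and 7.04% to 7.60% in the other fish. In fish 5 the single lncRNA LOC127508753 held 1.48% of the counts, so the higher share there rests on that gene.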

How the data were processed

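The authors deposited raw counts of reads for each gene in 1 file per library, and the 5 grass carp sperm files were used. HISAT2, SAMtools, Subread with featureCounts, fastp, FastQC and CASAVA are named, without versions or roles, per the submitters' processing notes. Not given in the sources used here are the genome build, annotation, strand setting and treatment of reads with several positions. Coordinates are therefore left out, and overlapping and antisense genes are uncertain. The labels' protocols count as many fish as libraries, so replicates are different fish.

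Of 31338 entries, 24 are unnamed, and library sizes exclude them. They held 0.00360% to 0.138% of the counts in the 5 fish. A RefSeq gene table (assembly HZGC01) gave gene type, span with introns, and neighbours. All 31314 named entries matched it in order, and 463 genes of that table, all pseudogenes, had no entry. CPM was the count scaled to the library's named total. Named genes were the highest in CPM and in CPM per kb among those above in all 5 fish, those in 1 fish only with the largest ratio to the next fish, the 6 most and 6 least variable genes with a mean CPM of 100 or more, and up to 3 per list with the highest mean. Other genes in the text were chosen after their values were seen. The members, lists and thresholds were chosen with earlier results of these data known, and the scale of genes of like span was added after seeing that CPM follows span. With 1 group, nothing was tested and no p-value is given. Dispersion came from edgeR 4.0.16 (R 4.3.3) with an intercept alone. TMM and DESeq2 1.42.0 size factors, other thresholds, count minimums, thinning to the smallest library and leaving out each fish were tried as alternatives. Calls above the general level in all 5 fish or in 1 fish only, and the edgeR dispersion, were tried on simulated counts. Those counts had a smaller spread than the data and raised genes set well over the threshold. Calls per kb and against genes of like span were not tried in this way. Floors (3 counts) and 95% Poisson intervals cover counting error only. Of the named genes, 1 is not reported here.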

Additional observations from a re-analysis of the deposited data

Results flagged for a closer look

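Of 132 sets of 5 values examined, 109 of them single named genes, 28 had 1 fish far from the other 4, by a gap to the nearest fish of more than 0.71 of the whole range. Chance flags about 1 in 20 such sets, and the genes named for being high in 1 fish were chosen for that, so their count is a description. Over the 17787 genes with a mean of at least 20 CPM, this gap marked 806 (4.5%) as high and 266 (1.5%) as low. The demand on the mean adds to the high side, since a gene can meet it through 1 high fish. The 22 genes above genes of like span in 1 fish only were all flagged, which follows from their choice. The other flagged genes were plxnb1a, tdrd9, spi1b, rps14 and fosaa. At the share over all genes, a few of the remaining named genes would be flagged anyway. All 27 genes among the 28 sets were high in the fish concerned, 12 in fish 5, 7 in fish 1, 4 in fish 4, 2 in fish 2 and 2 in fish 3.

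In fish 5 these were LOC127508753 at 14792 CPM, LOC127501437 at 1397 CPM, slc25a39 at 328 CPM, pcyox1 at 314.0 CPM, spi1b at 287 CPM, LOC127513593 at 191 CPM, gyg1a at 178 CPM, LOC127511499 at 172 CPM, bora at 142 CPM, tagln2 at 121 CPM, psma1 at 112 CPM and tdrd9 at 104 CPM. In fish 1 they were plxnb1a at 21147 CPM, LOC127497141 at 453 CPM, rbfox2 at 429 CPM, zgc:56095 at 404 CPM, otub1b at 269 CPM, zgc:113423 at 244 CPM and pptc7a at 161 CPM. In fish 4 they were si:ch211-212d10.1 at 424 CPM, marco at 167 CPM, anp32b at 95.9 CPM and the ribosomal protein gene rps14 at 36.7 CPM. In fish 2 they were ero1a at 220 CPM and the immediate early gene fosaa at 72.9 CPM, and in fish 3 slc25a55a at 331 CPM and LOC127499572 at 64.0 CPM. The only low value was the median of the oocyte and egg list in fish 5, at 12.8 CPM.

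The 24 entries without a gene name, which enter no comparison, held 0.138% of the counts in fish 1, 0.00664% in fish 2, 0.00360% in fish 3, 0.0172% in fish 4 and 0.0462% in fish 5. That is 191 to 7090 counts, above the 3 counts that a count of 0 allows.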

How the results depend on the processing

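Which genes stood above depended on the threshold. Above the general level in all 5 fish there were 159 genes at 5 times, 1 at 20 times and 23 against the median of all named genes, and 9 to 12 with 1 fish left out. In 1 fish only there were 20 at 5 times, 2 at 20 times, 16 at 3 times and 3 at 10 times the next fish, and 6 to 10 with 1 fish left out. Per kb of span there were 85 at 5 times, 116 with no minimum count, 8 with a minimum count of 100 and 17 after thinning to the smallest library, and 27 to 63 with 1 fish left out, the highest without fish 4. Against genes of like span in all 5 fish there were 118 at 3 times and 4 at 10 times, and 12 to 16 with 1 fish left out. In 1 fish only by that scale there were 10 at 10 times, 40 at 3 times and 4 at 10 times the next fish, and 13 to 23 with 1 fish left out, the lowest without fish 5. The mean correlation between fish was 0.887 over genes with a mean CPM of 20 or more and 0.950 after thinning, and 0.966 to 0.972 with 1 fish left out, and the median CV was 12.2% to 14.0%. The other 70 alternatives stayed within 1.5 times the count or 1 SD. TMM or DESeq2 scaling cannot change a call against a library's own median. It can change the demand of at least 5 times the CPM of the next fish. The 9 genes above the general level in 1 fish only were the same under both. Dropping the minimum count, or raising it to 100, cannot change a CPM call against the general level, where the threshold is at least 380 counts. Leaving out 1 fish can only add genes to those above in all fish. These settings are among the 70, so that number is not a count of independent checks. Of 880 recomputed means of named genes, 875 moved by less than 1 SD, and 5 moved on thinning (lrp1bb, map4k3b, grid1b, usp34 and spata20). No paired analysis was possible because only 1 group was described. Depth limits low genes most in fish 4, where 3 counts are 2.25 CPM. The files hold no transcript lengths or read positions, and 5 fish bound what can be said of the spread.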
